A study of Mus musculus with 28 samples.

Results

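The spermatid sort gate of the study held 5 libraries, of 28 in the series and 20 of sorted germ cells. They fell into separate classes by the summed RPKM (read counts scaled by exon length and library depth) of *Prm1*, the gene of protamine 1. The libraries of mice 178, 351 and 544 were chosen by a *Prm1* level of 10 RPKM or more, and those of mice 286 and 648 by a level under 10 RPKM. Because the same libraries set the classes, every difference between them given here is a description with no test. The members nearest to the threshold were mouse 544 inside it, at 929.9 RPKM, and mouse 286 outside it, at 2.14 RPKM.

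The study sequenced polyadenylated RNA from gonads and sorted germ cells of wildtype and *Csmd1* knockout mice, to follow *Csmd1* through gametogenesis. Mice 178, 351 and 648 were wildtype (WT), and mice 544 and 286 carried the constitutive knockout (KO), in which a lacZ/neomycin cassette stands in for exon 1 and a stretch of intron 1 in all cells. The strain was labelled C57BL/6 for all 5 mice, while the methods describe littermates of a colony with mixed 129SvEvBrd:C57BL/6 ancestry. For each mouse, a dissociated testis was kept whole and the other was stained with Hoechst and sorted by DNA content and chromatin state. An age of 40 days was listed for mice 178 and 351, with none in the labels of the other 3. The methods give sorted males as sexually mature at that age, within a day, but the study also sequenced sexually immature whole testes. Both listed ages belong to the class with *Prm1* of 10 RPKM or more. Whether the classes differ in age was not tested. Each library came from 1 mouse, so the classes compare 3 mice with 2, with a WT and a KO mouse on both sides.

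Round spermatids are haploid cells that have just left meiosis. They transcribe actively while they build the acrosome, the vesicle of enzymes that a sperm needs to reach the egg, and the axoneme, the motor of the tail. Later the nucleus elongates, histones give way to transition proteins and then to protamines, transcription stops, and the sheath and dense fibres of the tail are laid down. Transcripts of protamines and transition proteins are made in late round spermatids and stored until elongation, so they mark the later part of the series, whereas *Acrv1*, the acrosomal vesicle protein 1, is already made in round spermatids.

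Both classes held spermatid transcripts. *Acrv1* was at 173, 91.0 and 154 RPKM in mice 178, 351 and 544 and at 86.2 and 47.9 RPKM in mice 286 and 648. Its level was thus higher in each library of the first group than in either of the others. *Crem*, a transcription factor of round spermatids, was at 1908, 1896 and 1647 RPKM against 2668 and 2928 RPKM. Such transcripts were not confined to this gate. In mouse 648 the summed acrosome list was at 8817 RPKM in primary and 11321 RPKM in secondary spermatocytes, against 11783 RPKM in spermatids. These markers therefore do not check the label of the gate, and the part of earlier germ cells in these libraries was not tested. Among the lists compared below, protamines and transition proteins differed most between the classes, but many other genes differed too. In bulk RNA, fewer cells of a type and less RNA per cell cannot be told apart.

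Some measurements of these mice stood apart and touch what follows. The library labelled spermatogonia of mouse 544 held *Prm1* at 1402 RPKM and *Acrv1* at 149 RPKM, close to that mouse's spermatid library, so tests that use it are given with and without it. The spermatid library of mouse 286 held more transcripts of supporting cells, with a sum of 336 RPKM over the Sertoli cell list against 35.1 to 76.0 RPKM in the other 4. Depth, estimated from the smallest steps of the RPKM values, was 23859563 to 51531079 mapped reads per library, with the lowest in mouse 351. By which transcripts lacked a value, the libraries fell into 3 sets, with mice 178, 351 and 286 alike (865 such transcripts each). These libraries are called quantified together below, which is an inference that no label states. *Csmd1* itself was at 1.66, 0.575 and 6.33 RPKM in mice 178, 351 and 544 and at 1.21 and 0.180 RPKM in mice 286 and 648. The KO mice 544 and 286 were thus not the lowest. The study reports that knockout testes had most exons reduced or absent but the last ones raised. Since the deletion leaves later exons in place, this sum over transcripts does not check the genotype.

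The bases upstream of 4 protamine and transition protein genes are shown because they encode the proteins that replace histones, the step that the selecting gene belongs to. Each run gives the 150 bases before the transcription start from RefSeq on GRCm38.p6, minus strand, with matches to 2 short motifs in capitals. A CRE-like motif, TGANGTCA or its reverse complement TGACNTCA, resembles the site bound by CREM. A TATA-like motif was TATAAA, its reverse complement TTTATA, or TATATA, which is its own reverse complement. Where matches overlapped, the first from the left is in capitals.
Prm1 (chr16:10796824-10796973): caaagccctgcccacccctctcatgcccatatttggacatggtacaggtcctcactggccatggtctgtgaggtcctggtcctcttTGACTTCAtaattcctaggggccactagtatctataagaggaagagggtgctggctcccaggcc
Prm2 (chr16:10792106-10792255): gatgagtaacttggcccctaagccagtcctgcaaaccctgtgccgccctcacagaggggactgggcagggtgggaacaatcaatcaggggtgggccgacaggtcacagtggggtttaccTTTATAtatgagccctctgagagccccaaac
Tnp1 (chr1:73015900-73016049): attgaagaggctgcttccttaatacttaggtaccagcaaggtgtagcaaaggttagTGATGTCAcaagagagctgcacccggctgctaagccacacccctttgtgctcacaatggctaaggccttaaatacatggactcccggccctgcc
Tnp2 (chr16:10788656-10788805): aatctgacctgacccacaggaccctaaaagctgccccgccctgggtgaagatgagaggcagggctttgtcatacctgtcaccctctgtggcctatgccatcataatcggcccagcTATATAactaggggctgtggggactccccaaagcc
In *Prm1* the CRE-like motif lay 64 to 57 bases before the start, and in *Tnp1* it lay 94 to 87 bases before it. In *Prm2* and *Tnp2* the only match in these runs was TATA-like, 31 to 26 and 35 to 30 bases before the start.

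In all, 20646 genes averaged 0.1 RPKM or more across these libraries and were compared on quantile-normalised log2(RPKM + 0.1). A gene was counted as higher in the class with *Prm1* of 10 RPKM or more (the *Prm1*-high class) when the class means differed by 1 log2 unit or more and all 3 of its libraries lay above both libraries of the *Prm1*-low class. By this rule 3564 genes were higher, 17.3% of those compared, and 4106 were lower, 19.9%. The median difference over all genes was -0.21. Genes counted as higher took 29.8%, 35.3% and 38.1% of the summed RPKM in mice 178, 351 and 544, against 9.29% and 5.53% in mice 286 and 648. Genes counted as lower took 13.7%, 13.6% and 9.29% against 27.7% and 34.0%.

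The 2 directions differed in shape. The median difference was 1.88 for the higher genes and -1.50 for the lower genes. At 3 log2 units or more, 699 genes were higher and 81 lower, and at 5 or more, 185 were higher and 1 lower. The largest difference upward was 10.46 and the largest downward -5.23. The upward differences thus ran to many more log2 units than the downward ones.

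**Figure D1:**
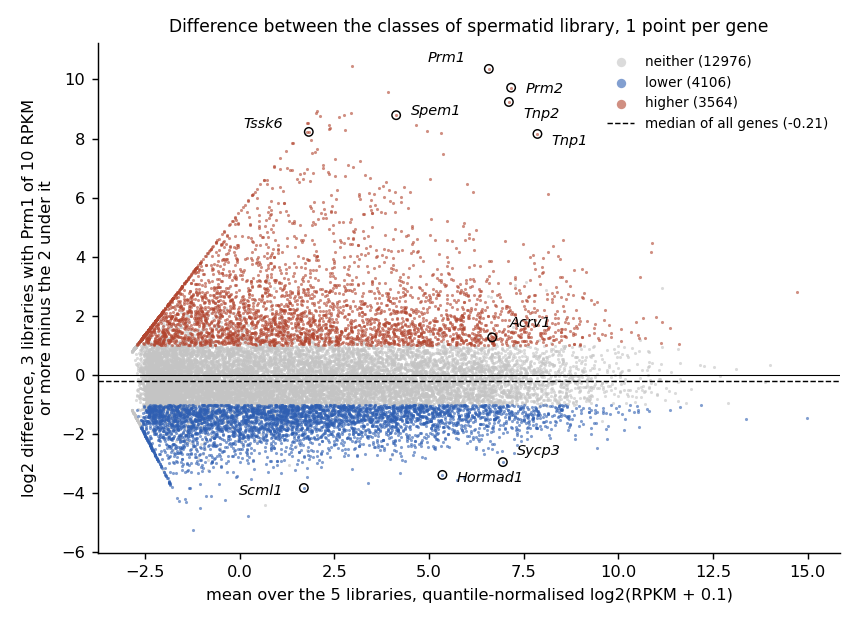
Each point is a gene, with its mean over the 5 spermatid libraries on the x axis and the log2 difference between the classes on the y axis, both on quantile-normalised log2(RPKM + 0.1). The 3564 higher genes (red) reach 10.46 and the 4106 lower genes (blue) reach -5.23, and the dashed line marks the median of all genes, -0.21.

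Protamines and transition proteins formed the sharpest group, while 17.3% of all genes were higher. All 5 were higher, with a median difference of 9.24, and their summed level was 7507, 7578 and 7867 RPKM in mice 178, 351 and 544 against 74.9 and 44.9 RPKM in mice 286 and 648. *Prm1* was the selecting gene, so its own difference of 10.36 restates the rule. *Prm2*, which encodes the other main sperm protamine, was at 1409, 2209 and 2179 RPKM against 2.82 and 2.01 RPKM, a difference of 9.72.

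*Tnp1*, the transition protein that follows the histones, was at 1659, 1868 and 2378 RPKM against 5.68 and 11.5 RPKM. *Tnp2*, the other transition protein, was at 1388, 1681 and 1635 RPKM against 2.39 and 3.50 RPKM. Neither gene's classes came near each other, and the 3 libraries of the high class differed by less than 2-fold for each of these genes. *Prm3*, a small acidic protein, lies with *Tnp2*, *Prm2* and *Prm1* in a cluster at chr16:10787936-10805839 on GRCm38. It departed less, at 473, 520.4 and 744 RPKM against 61.9 and 27.3 RPKM, a difference of 3.98.

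Within the high class *Prm1* and *Prm2* did not order the mice alike. *Prm1* was highest in mouse 178 and lowest in mouse 544, whereas *Prm2* was lowest in mouse 178 and the sum over the 5 genes varied little among the 3.

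Among 7 genes of late linker histones and chromatin remodelling, 4 were higher, 2 lower and 1 neither, with a median of 2.78. These small counts stand beside 17.3% higher and 19.9% lower over all genes. *H1fnt*, the testis linker histone of elongating spermatids, was at 176, 82.7 and 92.4 RPKM against 1.0 and 1.59 RPKM. *Hils1*, another spermatid linker histone, was at 133, 90.4 and 110.3 RPKM against 25.4 and 11.1 RPKM. *H1fnt* was thus nearly confined to the high class, at a difference of 6.38, while *Hils1* was present in both, at 2.85.

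*Chd5*, a chromatin remodeller needed for the exchange of histones, was at 338, 646 and 1001 RPKM against 137 and 74.9 RPKM. *Cdyl*, a chromodomain protein of spermatids, was at 53.8, 65.0 and 133 RPKM against 5.38 and 3.88 RPKM. The lower members were *Brdt*, a bromodomain protein that reads acetylated histones from meiosis onward, at 375, 211 and 206 RPKM against 600.3 and 1207 RPKM, and *Psme4*, the proteasome activator that acts on acetylated histones, with a difference of -1.10. *Rnf8*, a ubiquitin ligase, differed by 0.63, under the limit of 1, although its classes did not overlap.

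**Figure D2:**
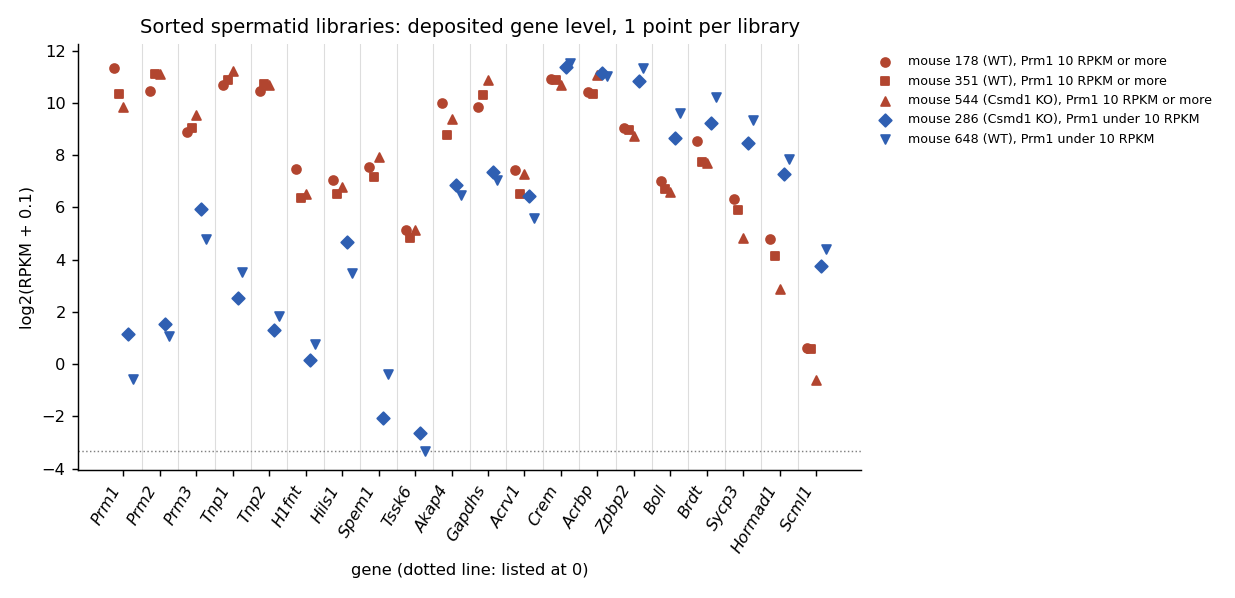
Deposited gene levels as log2(RPKM + 0.1) for 20 genes on the x axis, with 1 point per spermatid library, red for *Prm1* of 10 RPKM or more and blue for under 10 RPKM, and marker shape for the mouse. Protamines and transition proteins sit far apart between the colours, *Crem* and *Acrbp* lie close together, and *Hormad1* and *Scml1* are lower in red.

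The sheath and outer dense fibres, which stiffen the sperm tail, held 17 compared genes. Of these, 11 were higher, none lower and 6 neither, with a median of 1.94, beside 17.3% higher over all genes. *Akap4*, the main protein of the fibrous sheath, was at 1024, 441 and 677 RPKM against 117 and 89.6 RPKM. *Ropn1*, which binds the same sheath, was at 247, 229.9 and 787 RPKM against 69.1 and 25.3 RPKM. *Odf1*, of the outer dense fibres, was at 127, 115 and 204 RPKM against 47.4 and 12.5 RPKM. All 3 were already present in the low class, at 12.5 RPKM or more, unlike *Prm1* and *Prm2*.

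The largest difference in this group was 4.46, for *Ccin*, calicin of the sperm head cytoskeleton, at 19.7, 16.5 and 34.2 RPKM against 0.978 and 0.841 RPKM. *Txndc2*, a sperm thioredoxin, followed with 131, 141 and 231 RPKM against 7.91 and 13.1 RPKM. *Odf2*, the most abundant gene of the group, did not separate the classes, at 11509, 18839 and 24914 RPKM against 12789.8 and 25588 RPKM.

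Genes that shape the late spermatid and clear its cytoplasm divided evenly. Of 14 compared, 7 were higher, none lower and 7 neither, with a median of 0.91, beside 17.3% higher over all genes. *Spem1*, needed to shed the cytoplasm, was at 188, 143 and 242 RPKM against 0.138 and 0.671 RPKM, and its neighbour *Spem2* was at 80.0, 46.4 and 115 RPKM against 1.02 and 1.36 RPKM.

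The testis-specific serine kinases did not move as a block. *Tssk6*, needed for head shaping and chromatin condensation, was at 35.4, 28.3 and 35.4 RPKM against 0.0610 and 0 RPKM. *Tssk3* was at 100.5, 50.2 and 98.0 RPKM against 9.26 and 3.52 RPKM. *Tssk1* and *Tssk2* differed by 2.49 and 2.75, and *Tssk4* by 0.75, with 47.9, 44.9 and 58.2 RPKM against 40.9 and 26.6 RPKM. *Meig1*, which acts in assembling the manchette, was abundant in both classes, at 4665, 4358 and 4755 RPKM against 3869 and 8294 RPKM.

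Acrosome and sperm-egg fusion genes went both ways, beside 17.3% higher and 19.9% lower over all genes. Of 19 compared, 7 were higher, 3 lower and 9 neither, with a median of 0.34 (0.21 without mouse 286 and 0.06 with RPKM as deposited), and their summed level was lower in the high class, at 5283, 4917 and 5833 RPKM against 8652 and 11783 RPKM. The 3 lower of 19 are no more than the 19.9% lower over all genes. Some of the higher members follow as single values only. Membrane or fusion genes against those that build the acrosome was not tested. *Izumo1*, the sperm ligand for the egg membrane, was at 77.3, 50.0 and 110.3 RPKM against 17.0 and 9.11 RPKM. *Spaca3* differed by 3.01, *Spaca4* by 3.42 and *Tmem190* by 3.40, each with all 3 libraries above both others.

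The lower members were *Zpbp2*, which binds the zona pellucida, *Spata16* and *Dpy19l2*, both needed to build the acrosome. *Zpbp2* was at 519.6, 493 and 426 RPKM against 1853 and 2566 RPKM. *Dpy19l2* differed by -1.50 and *Spata16* by -1.39. *Acrbp*, which holds proacrosin in the vesicle, was near equal at 1365, 1284 and 2169 RPKM against 2296 and 2108 RPKM, and *Acr*, acrosin itself, differed by 0.28.

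Among 17 regulators of round spermatids, 3 were higher, 3 lower and 11 neither, with a median of -0.57. These counts are near the shares of all genes, 17.3% higher and 19.9% lower, so the members below are given as single values only. *Boll*, an RNA-binding protein first made in meiosis, was at 129.6, 105 and 95.6 RPKM against 399.6 and 782 RPKM. *Tbpl1*, a TBP-like factor of the round spermatid, was at 125, 121 and 74.8 RPKM against 382 and 629.8 RPKM. *Rfx2*, a transcription factor of ciliary and spermatid genes, differed by -1.11, but by -0.25 between the KO mice. *Fhl5*, the coactivator of CREM, was among the 3 higher, at 85.3, 78.2 and 138 RPKM against 10.8 and 9.21 RPKM, while *Crem* itself differed by -0.13.

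Of 10 genes of the CatSper and Slo3 channels of the sperm tail, 3 were higher, 2 lower and 5 neither. Over all genes 17.3% were higher and 19.9% lower. The median of the 10 was -0.07, and 0.03 without mouse 286. *Catsper3* was at 119.8, 80.9 and 202 RPKM against 38.4 and 10.7 RPKM, and *Catsper4* at 323, 334 and 339.7 RPKM against 176 and 46.3 RPKM. The auxiliary subunit genes *Catsperb* and *Catsperd* were lower, with differences of -1.49 and -1.01. *Kcnu1*, the Slo3 potassium channel, differed by 0.10. These members are given as single values only, and pore-forming against auxiliary subunits was not tested.

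Of 22 axoneme genes, which build the motor of the tail, 1 was higher, 6 were lower and 15 neither, beside 19.9% lower over all genes. Their median was -0.51, and -0.31 without mouse 648, near the -0.21 of all genes. *Ccdc39*, a ruler protein of the axoneme, was at 74.5, 42.3 and 28.7 RPKM against 253 and 355 RPKM, and its partner *Ccdc40* at 147, 211 and 214 RPKM against 496 and 1115 RPKM. *Dnah8*, a dynein heavy chain, was at 80.1, 65.3 and 53.8 RPKM against 183 and 264 RPKM. The only higher member was *Tekt5*, at 54.9, 63.6 and 125 RPKM against 17.0 and 46.3 RPKM.

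The sperm glycolysis list, of isozymes that fuel the tail, also held the mitochondrial *Pdha2*, *Cox6b2* and *Cyct*. Of its 11 genes, 4 were higher, none lower and 7 neither, beside 17.3% higher over all genes. The median of 0.78 became 1.34 without mouse 286 and 0.52 without mouse 648. *Gapdhs*, the spermatid form of glyceraldehyde-3-phosphate dehydrogenase, was at 929, 1258 and 1878 RPKM against 163 and 132 RPKM. *Hk1*, hexokinase 1, was at 2834, 2949.9 and 3736 RPKM against 1039 and 1402 RPKM. *Ldhc* and *Pgk2*, isozymes already made in spermatocytes, differed by 0.95 and 0.22 and were not counted. Enzymes of the same pathway therefore did not shift to the same extent between the classes.

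**Figure D3:**
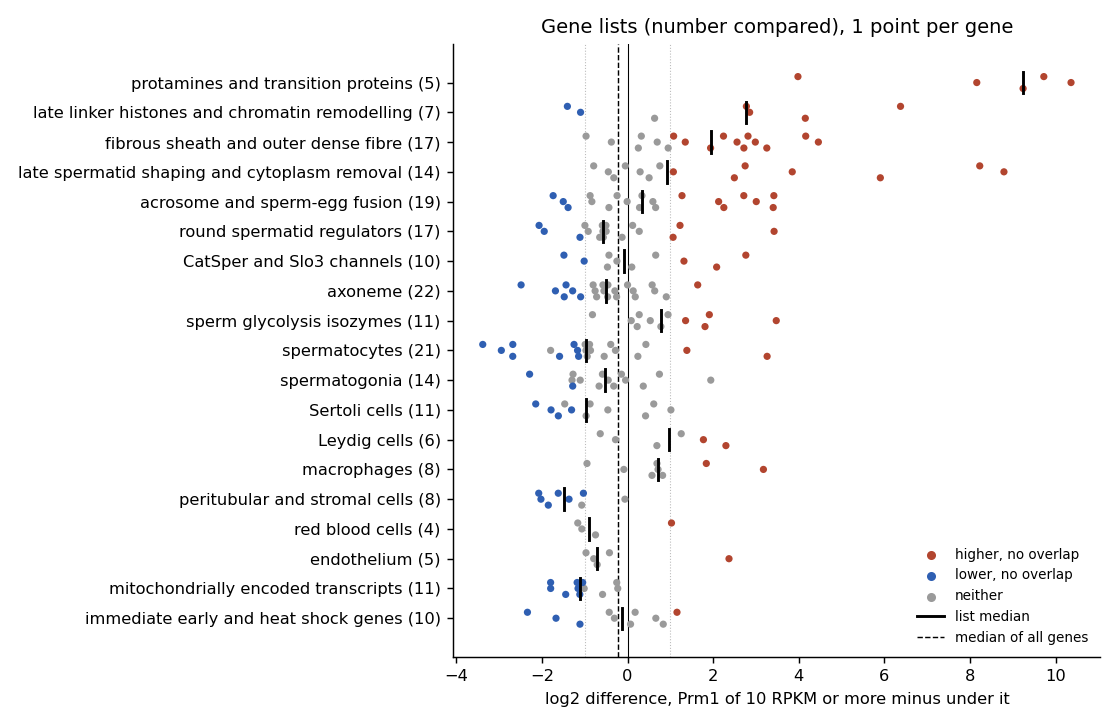
The log2 difference between the classes for each compared gene of 19 lists, red and blue where the classes do not overlap and the difference is 1 or more, with a bar at each list's median. Protamines and transition proteins lie at 3.98 to 10.36, and the spermatocyte, peritubular and mitochondrial lists lie mostly left of the median of all genes, -0.21.

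Of 21 spermatocyte genes, 8 were lower, 2 higher and 11 neither, with a median of -0.97, while 19.9% of all genes were lower. *Sycp3*, of the axial elements of the synaptonemal complex, was at 79.1, 60.1 and 28.6 RPKM against 352 and 653 RPKM, and *Sycp2* at 56.9, 44.1 and 24.4 RPKM against 252 and 362 RPKM. *Hormad1*, which marks unsynapsed axes, was at 27.4, 17.7 and 7.17 RPKM against 153 and 232 RPKM. Within the high class mouse 544 was the lowest for all 3 genes.

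The 2 exceptions were *Syce2*, a central element protein, at 195, 105 and 185 RPKM against 20.2 and 16.6 RPKM, and *Rec8*, the meiotic cohesin, at 104, 55.4 and 101 RPKM against 53.0 and 23.8 RPKM. Lists of other cell types were also compared. The spermatogonia list, which marks the stem and early germ cells, had 2 lower and 12 neither of 14. This is no more than the 19.9% lower over all genes. The summed levels of the list were 19.1 to 33.5 RPKM across the 5 libraries.

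Of 11 Sertoli cell genes, 4 were lower and 7 neither, with a median of -0.97, which was -0.36 without mouse 286, -1.53 without mouse 648 and -0.14 within WT mice. *Wt1*, a transcription factor of Sertoli cells, was at 4.01, 5.36 and 2.59 RPKM against 31.6 and 10.3 RPKM, with mouse 286 the highest. Of 8 peritubular and stromal genes, 6 were lower, none higher and 2 neither, with a median of -1.49 (-0.63 without mouse 286 and -2.28 without mouse 648), and their sum was 6.16, 5.30 and 2.92 RPKM against 31.5 and 6.54 RPKM. The Sertoli sum in mouse 648, 76.0 RPKM, was close to the 73.0 RPKM of mouse 178, so the larger level was that of mouse 286. The part of these cells in the lower genes was not tested. Macrophage genes had 2 higher and 6 neither of 8, and Leydig genes 2 higher and 4 neither of 6. Endothelial genes had 1 higher and 4 neither of 5, and red blood cell genes 1 higher and 3 neither of 4. Every such sum was under 15 RPKM in these libraries. Over all genes 17.3% were higher and 19.9% lower, so the counts of these small lists are not read as changes of those cells.

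Transcripts encoded by the mitochondrial genome were lower for 7 of 11 genes and neither for 4, beside 19.9% lower over all genes. Their median was -1.11, and -0.37 within WT mice. *mt-Nd4*, a subunit of complex I, was at 531, 357 and 213 RPKM against 1829 and 1336 RPKM. Their summed level was 40152, 66997 and 26918 RPKM against 83638 and 65801 RPKM, so mice 351 and 648 lay side by side. Immediate early and heat shock genes, which can respond to dissociation, had 1 higher, 3 lower and 6 neither of 10, with a median of -0.12. Beside them, 17.3% of all genes were higher and 19.9% lower, so the member below is a single value only. *Egr1*, an immediate early transcription factor, was at 3.81, 3.08 and 1.94 RPKM against 11.0 and 22.7 RPKM. Whether either group bears on the other differences was not tested.

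Beyond the lists, the 12 genes with the largest difference upward and a mean of 5 RPKM or more included *Prm1*, *Prm2*, *Tnp2* and *Spem1* and 8 others. *Gm498* led, at 203, 84.1 and 131 RPKM and listed at 0 in both libraries of the low class. Against 3 reads in each of those libraries, which equals 0.0620 RPKM, it was at least 2249-fold higher. By the same reckoning *Bpifa3* was at least 346-fold and *1700042G07Rik* at least 291-fold higher.

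*Gm5893* was at 216, 156 and 236 RPKM against 0.0860 and 0.287 RPKM. *Smim23*, a small membrane protein gene, was at 107, 62.5 and 89.6 RPKM against 0.323 and 0 RPKM. *Prss37*, a serine protease relative that sperm need for fertility, was at 66.6, 48.7 and 86.1 RPKM against 0 and 0.111 RPKM. *Adig* and *1700016C15Rik* had differences of 8.80 and 8.77. Each of the 8 was at 27.5 RPKM or more in all 3 libraries of the high class and at 0.323 RPKM or less in the others.

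The 12 genes with the largest difference downward spanned -3.82 to -2.97. *Scml1*, an X-linked Polycomb-like gene of the germ line, was at 1.44, 1.39 and 0.557 RPKM against 13.6 and 21.3 RPKM. *4930447C04Rik*, known as *Six6os1* and part of the synaptonemal complex, was at 5.63, 7.17 and 1.13 RPKM against 68.9 and 37.3 RPKM. *Trmt61b*, a mitochondrial tRNA methyltransferase, was at 6.10, 10.4 and 5.63 RPKM against 48.2 and 147 RPKM. *Hormad1*, given above, was also among them.

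*Nxf3*, an X-linked RNA export factor that Sertoli cells express, was at 2.36, 1.20 and 0.376 RPKM against 24.2 and 4.62 RPKM, and *Atp1b2*, a sodium pump subunit, at 4.04, 2.35 and 0.551 RPKM against 31.0 and 8.94 RPKM. For both, mouse 286 was far above mouse 648, as for the Sertoli markers. *Tnks2*, a tankyrase, was at 2.45, 1.08 and 0.934 RPKM against 17.3 and 10.2 RPKM, and *Tnfrsf18*, a TNF receptor, at 1.30, 2.03 and 0.707 RPKM against 20.5 and 10.5 RPKM.

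The remaining 4 were *Gm17200*, *Gm3543*, *Gm8246* and the host region of *Mir147*, at -3.56, -3.17, -2.97 and -3.49. Counting by strand was not stated, so reads of overlapping or near-identical genes, including these 4, could not be told apart. The value under *Mir147* comes from polyadenylated RNA and is no level of the mature miRNA.

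Higher and lower genes differed in structure. The median transcript length was 952 nucleotides for higher and 1547 for lower genes, against 1165.5 for all compared. Median GC content was 51.5% for higher, 46.7% for lower and 49.8% for all. Long noncoding RNAs made up 15.3% of higher genes, 7.96% of lower genes and 11.0% of all. Lower genes were thus longer, richer in A and T and more often protein-coding, at 82.0% against 71.9% of higher genes.

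The sex chromosomes leaned downward. On X, 262 of 860 compared genes were lower, 30.5%, and 106 were higher, 12.3%, against 19.3% and 17.6% on the autosomes. On Y, 25 of 66 were lower and 2 higher. Y genes of testis include many near-identical copies, so their counts are uncertain. The median difference on X was -0.60 and on the autosomes -0.19.

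Upstream windows of 250 bases were found by symbol for 13368 of the 20646 compared genes, 2310 of the 3564 higher and 2789 of the 4106 lower genes. The CRE-like motif was present in 14.6% of the higher genes with a window, 8.28% of the lower, 7.67% of those in neither, and 8.99% of all compared. Its share was 24.1% among 464 genes higher by 3 or more and 27.3% among 132 genes higher by 5 or more. Over all 27025 genes with a RefSeq window it was 8.55%. The TATA-like motif was at 11.7% of higher, 10.8% of lower and 11.5% of all compared genes. The CRE-like share was therefore greater toward the larger upward differences, and the TATA-like share less so, reaching 15.9% among genes higher by 5 or more.

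Of the 5 protamine and transition protein genes, 3 held the CRE-like motif in this window (*Prm1*, *Prm3* and *Tnp1*) and 2 the TATA-like motif (*Prm2* and *Tnp2*). Among the 9 of the 12 leading higher genes with a window, *Prm1* alone held the CRE-like motif. A match of these letters is a description of the window and not a bound site.

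**Figure D4:**
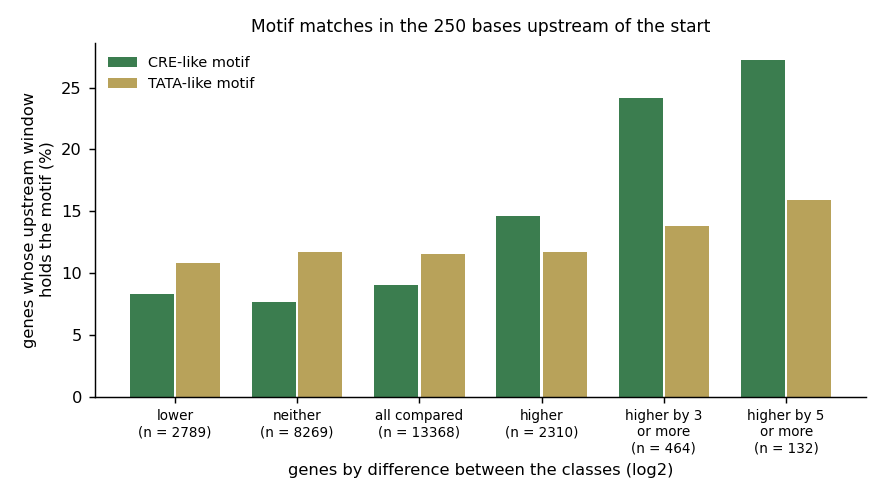
Percentage of genes whose 250 upstream bases held a CRE-like (green) or TATA-like (tan) motif, by difference between the classes of spermatid library, with the number of genes having a window. The CRE-like share is 8.28% for lower genes and 27.3% for genes higher by 5 or more.

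Across genes, profiles were closer within classes than between them. Pearson's r on the log2 scale was 0.951 to 0.960 among the 3 high libraries and 0.952 between the 2 low ones, against 0.851 to 0.895 between classes, over 20646 genes that are not independent. The lowest value, 0.851, joined mice 544 and 648. Within WT mice alone (178 and 351 against 648), the rule gave 4283 higher and 5152 lower genes, within KO mice (544 against 286) 4770 and 5716, and among the libraries quantified together (178 and 351 against 286) 3810 and 4297. Fewer libraries make the no-overlap condition easier to meet. Without mouse 286, whose Sertoli and stromal sums were high, 4221 genes were higher and 5199 lower.

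Other samples of the same mice had not set the classes. In whole testis, *Prm1* was at 603 RPKM in mouse 178 against 1.16 and 0.681 RPKM in mice 286 and 648, and *Prm2* at 2374 RPKM against 1.68 and 0.456 RPKM. In secondary spermatocytes, *Prm1* was at 124 and 261 RPKM in mice 178 and 544 against 1.99 and 0.691 RPKM in mice 286 and 648. In spermatogonia it was at 92.9 and 1402 RPKM against 0.348 and 0.0940 RPKM. The low level in mice 286 and 648 was thus seen in each of these gates and in the unsorted testis.

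The summed protamine and transition protein level in mouse 648 went from 1.43 RPKM in the spermatogonia library through 7.83 (primary) and 20.6 (secondary spermatocytes) to 44.9 RPKM in the spermatid library, with 15.2 RPKM in whole testis. In mouse 178 the same 5 libraries held 469, 136, 900.3, 7507 and 4941 RPKM. The acrosome list in contrast was at 3252 RPKM in whole testis of mouse 178 and at 4310.2 and 7786 RPKM in mice 286 and 648.

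**Figure D5:**
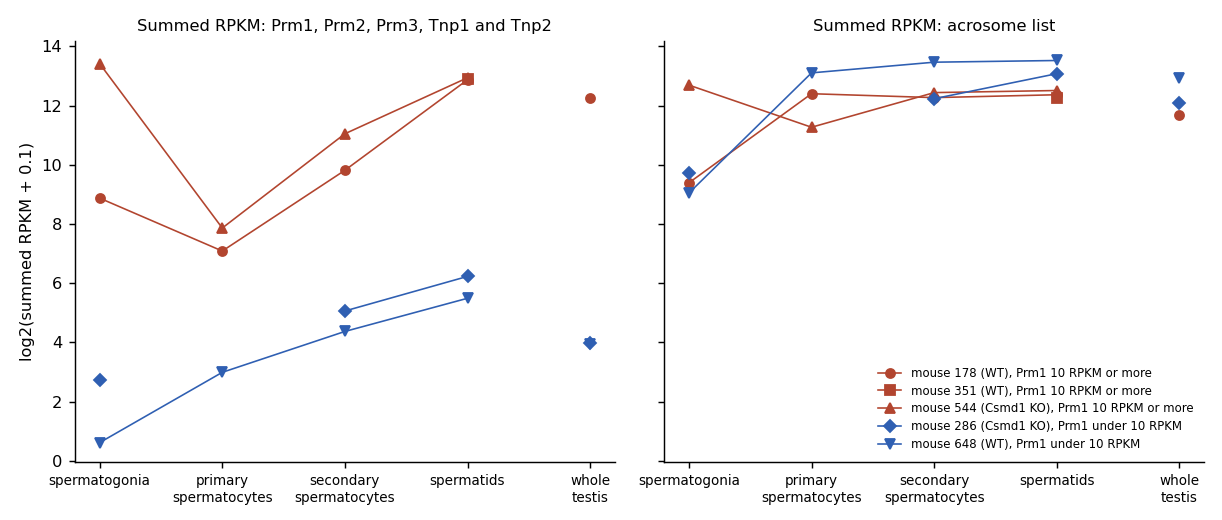
Summed RPKM of the protamine and transition protein genes (left) and of the acrosome list (right), as log2(sum + 0.1), by gate on the x axis, with a line or point per mouse, red for spermatid *Prm1* of 10 RPKM or more and blue for under 10 RPKM. The left sums are higher in red in every gate with both colours, from 136 RPKM upward against at most 74.9 RPKM, while in spermatids the right sums are lower in red, at 4917 to 5833 RPKM against 8652 and 11783 RPKM.

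By the same rule of difference and no overlap, whole testis (mouse 178 against 286 and 648) had 18.8% of 24089 genes higher and 22.7% lower. Of the spermatid-higher genes compared there, 1914 of 3322 were also higher, 57.6%, which is 42.3% of the whole-testis calls. Of the spermatid-lower genes 49.9% were lower there, 36.5% of the lower calls. In secondary spermatocytes (178 and 544 against 286 and 648) 11.7% of 22269 genes were higher and 12.2% lower, and 1600 of 3335 spermatid-higher genes were among the higher, 48.0%, which is 61.4% of the calls there. For the lower genes these shares were 31.5% and 47.0%. In spermatogonia 15.4% of 22010 genes were higher and 21.0% lower, with 1513 of 3307 spermatid-higher genes, 45.8%, and 44.6% of the calls, and for the lower genes 36.6% and 30.7%. These libraries come from the mice that the rule split, so the shares describe the same animals again.

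Differences in the 2 gates that the rule did not use were tested with limma in 1 fit of 8 libraries (spermatogonia and secondary spermatocytes of mice 178 and 544 against 286 and 648), adjusted by Benjamini-Hochberg over 22537 genes. The fit gave each gene 1 spread shared by both gates, so *Prm1* had the same SE of 0.92 in each. The spermatogonia library of mouse 544, which held spermatid transcripts, thus also entered the SE of secondary spermatocytes. How far it bears on the calls there was not tested. In secondary spermatocytes limma called 0 genes higher and 0 lower at an adjusted p under 0.05, 0% in both directions. There were 1623 genes at an unadjusted p under 0.05. *Prm1* there differed by 6.76 ± 0.92 (SE, limma adjusted p = 0.0819, 2 mice against 2), with both high-class mice above both others. The smallest adjusted p, 0.0756, was shared by *Gm498*, *Gm5893*, *Bpifa3* and *Cstl1*.

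In spermatogonia limma called 78 genes higher, 0.346% of those tested, and 3 lower, 0.0133%. With the mouse as a replicate block the counts were 142 and 11. Of the 78, 77 were also higher in spermatids, and the 3 lower genes were lower in spermatids. Over all genes compared in spermatids, 17.3% were higher and 19.9% lower. The spermatogonia library of mouse 544 had a protamine and transition protein sum of 10946 RPKM, against 7867 RPKM in its spermatid library. The overlap is therefore no separate support for the spermatid differences. All 5 protamine and transition protein genes rose in this gate, *Prm1* by 9.81 ± 0.92 (SE, limma adjusted p = 0.00725) and *Prm3* by 6.65 ± 1.13 (SE, limma adjusted p = 0.0417). Of the sheath list 5 of 17 genes rose, of the late shaping list 3 of 14, of the chromatin list *H1fnt* alone of 7 and of the glycolysis list *Gapdhs* alone of 11. None of the 19 acrosome genes, 22 axoneme genes or 21 spermatocyte genes passed.

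The 3 lower genes were *Spp1*, osteopontin, by -4.87 ± 0.71 (SE, limma adjusted p = 0.0242), *Gm11878* and *Irf1*, an interferon-responsive transcription factor. The calls in spermatogonia changed with the mice that entered. Without mouse 544, whose spermatogonia library held spermatid transcripts, limma called 0 genes, with 1824 at an unadjusted p under 0.05. It also called 0 without mouse 286 (2897 unadjusted) or mouse 648 (1271 unadjusted), and without mouse 178 it called 1802. Each of these fits leaves 1 library in an arm, so they do not assign the calls to any 1 library. Tested as an interaction, limma found 0 genes whose difference between the mice was unlike in the 2 gates, with 788 at an unadjusted p under 0.05.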

How the data were processed

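Polyadenylated RNA of whole gonads and Hoechst-sorted germ cells was sequenced as 28 libraries. The authors mapped reads to Ensembl release 72 and deposited RPKM per transcript as made with TopHat2; they describe PEER adjustment and PoissonSeq, which were not run here, and quantile normalisation, which was repeated here. Strand-specific counting is not given in the sources used here. Of 94480 transcripts, 95.6% matched GENCODE M21 (GRCm38) and were summed to genes; names and positions come from that annotation. Values were quantile-normalised as log2(RPKM + 0.1), so fold changes of low genes are understated, and genes with a mean under 0.1 RPKM were left out. Depth was estimated from RPKM steps, with 94.5% to 94.7% of checked values within 0.06 of whole reads. Intervals are not given, since depth is only an estimate.

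The members, gene lists and tests were chosen with earlier results of these data known. Genes were named from 20 lists of 230 genes, 221 of which were compared. A second rule added the 12 genes per direction with the largest difference, a mean of at least 5 RPKM, no overlap, and 1 sign within WT, within KO and within the libraries quantified together. *Oaz3*, *Azi1*, *Catspere1* and *Spata8* had no transcript under that symbol, and 5 others (*Rhox5*, *Lhcgr*, *C1qa*, *Hbb-bt*, *Hspa1b*) had a mean under 0.1 RPKM.

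Limma 3.58.1 in R 4.3.3 fitted 4 groups of gate and mouse class, with a trend. Libraries of a mouse share an animal, and the residuals of its 2 gates correlated (r = 0.289 for mice 178 and 544, 0.258 for 286 and 648). With 2 mice per group, their residuals mirror each other, so each class gives a single r. The mouse was therefore also tried as a block. The steps were tested on simulated data. Python 3.11.15, numpy 2.4.6, pandas 2.3.3 and matplotlib 3.10.9 were used. Alternatives were RPKM as deposited, pseudocounts of 0.01 and 1, no filter, a filter of 1 RPKM, each mouse left out, each genotype alone, the libraries quantified together, missing transcripts counted as 0, single transcripts, and a genotype term.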

Additional observations from a re-analysis of the deposited data

Results flagged for a closer look

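Of the list genes, 2 ran opposite ways in the genotypes by 1 log2 unit or more. *Amhr2*, the receptor of anti-Müllerian hormone, was higher in WT mice 178 and 351 than in 648 by 2.07 but KO mouse 544 differed from 286 by -1.52, a gap of 3.59. *Hbb-bs*, a haemoglobin chain, differed by 1.93 in WT and by -4.68 in KO, a gap of 6.61, with levels of 2.92 RPKM or less in all 5 libraries. Neither difference was tested, and the KO comparison has 1 library on each side.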

How the results depend on the processing

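The higher and lower counts of 3564 and 4106 genes fell to 2276 and 2314 with a pseudocount of 1 and were 10266 and 11787 of 60676 single transcripts, which are more features. Leaving out a library gave 3653 to 4221 higher and 4077 to 5199 lower genes. With RPKM as deposited they were 3373 and 4178. Counting missing transcripts as 0 changed nothing by construction, since none of the matched ones had a value in any of the 5 libraries. List medians moved beyond the spread between libraries in 60 alternatives and not in 220. Leaving out a library kept the median of protamines and transition proteins at 8.77 to 9.54 and that of the spermatocyte list at -1.16 to -0.86, while the peritubular median ran from -2.28 to -0.63.

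The limma counts moved more. In secondary spermatocytes the total of 0 became 5 with a pseudocount of 0.01, 2 with a filter of 1 RPKM and 6 with a genotype term, and stayed 0 when any mouse was left out (0 to 0). In spermatogonia the total of 81 became 0 with RPKM as deposited, with a pseudocount of 1 and with no filter. It became 168 with a pseudocount of 0.01 and 461 with a genotype term. With the mouse as a replicate block, which models the correlation between the 2 gates of a mouse, it was 153. It ranged from 0 to 1802 with a mouse left out, where the lone library of an arm is assumed to vary like the other groups. The median difference of all genes in spermatogonia was -0.145 as analysed and 0.197 with RPKM as deposited. The cause of these moves was not tested. With 3 libraries against 2, and 2 mice against 2 in the tests, a difference that was not called was not shown to be absent.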
